A study of Homo sapiens with 7 samples.

Results

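HCT116 reporter cells that had carried a genome-wide CRISPR knockout pool until day 10 were compared with the guide pool itself, to describe which gene knockouts cells had lost or gained in number. The comparison used 4 of the 7 sequenced libraries, which are 3 unsorted input libraries and 1 library of the guide pool. A guide was kept when the pool held at least 30 reads of it, which left 76938 of 77441 guides, 19109 of 19112 genes and 994 of 1000 non-targeting guides. HCT116 is a colon cancer line, and the cells were a clonal derivative with a GFP splicing reporter for intron 4 of OGT, integrated at the AAVS1 locus. The labels group the libraries as input and library. Input cells were infected with lentivirus of the Brunello library at a multiplicity of 0.3, received puromycin for 8 days from day 2, were given 1 μM TG, an inhibitor of the O-GlcNAc-removing enzyme OGA, for 24 hours on day 9 (replenished every 12 hours), and were collected unsorted. Replicate 1 was a pilot at 100-fold coverage and the other replicates were at 300-fold coverage. The deposited table does not say which input value belongs to which replicate, so the inputs are called input library 1, 2 and 3 by their place in that table. The sources differ on the pool library: the series text has it from unselected cells and the methods speak of amplified plasmid DNA. Its label gives no drug treatment, so growth, puromycin and TG all lie between the pool and the inputs and cannot be told apart.

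In a pooled knockout screen each cell carries 1 guide RNA that directs Cas9 to cut a gene, and the cut is repaired with small insertions or deletions that usually disrupt the protein. Cells that lose a gene they need divide less or die, and their guides become rarer than in the starting pool. Cells that lose a gene that restrains division can become more common. Genes needed in nearly every cell line encode the ribosome, the spliceosome, RNA polymerases, the proteasome, nuclear transport and DNA replication. HCT116 cells carry activating alleles of CTNNB1 and PIK3CA and defective mismatch repair, a background in which many lines need the helicase WRN.

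The input libraries held 29511361, 27817463 and 28144591 reads and the pool held 35774845, with medians of 321, 302, 306 and 396 reads per guide. Input libraries 2 and 3 were most alike (r = 0.91 over guides, on log2 values), and input library 1 lay nearer to the pool (r = 0.80) than input libraries 2 (0.71) and 3 (0.68) did. The correlations share the pool and the guides, and they are given as a description.

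Guide sequences of 4 genes are shown first, because they carry the largest losses, the largest gain and the gene whose intron the reporter holds. The 20 bases of each guide are in lower case, the capitals that follow are the PAM that lies next to it in GRCh38, and coordinates cover the 20 bases only. KPNB1, the importin that carries proteins through the nuclear pore, had the lowest ratio of all genes whose guides each have 1 genome site. Its guides were added to the display after its values were seen:
KPNB1 exon 11, chr17:47669713-47669732, minus strand: tatctcgaacaactacactgGGG
KPNB1 exon 6, chr17:47661157-47661176, plus strand: cacacagtgtccagatacgaGGG
KPNB1 exon 4, chr17:47657038-47657057, minus strand: atcttggcaaatataaccgaTGG
KPNB1 exon 12, chr17:47670811-47670830, plus strand: agctcctagagactacagacAGG
The exon 11 guide went from 554 pool reads to 32, 24 and 76 reads in the 3 inputs. The exon 6 guide went from 550 to 68, 47 and 26 reads. The exon 4 guide had 190 pool reads against 21, 7 and 36, and the exon 12 guide 312 against 65, 70 and 23. All 4 guides were therefore rare in all 3 inputs, although the input libraries did not keep the same order from guide to guide.

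The lowest gene of all, the uncharacterised LOC100507462, had 3 guides with many genome sites. Sites were counted as perfect 20-base matches beside an NGG motif on the primary chromosomes, and guides with many sites are shown without a PAM:
LOC100507462, 81 sites: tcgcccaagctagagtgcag
LOC100507462, 604 sites: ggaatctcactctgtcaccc
LOC100507462, 41471 sites: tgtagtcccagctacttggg
LOC100507462, 1 site, chr6:138773502-138773521, plus strand: atctaacactcaccgaggggCGG
The guide with 81 sites had 254 pool reads and none in any input, and it was the 1 targeting guide of the kept set with no read in all 3 inputs. The guide with 604 sites went from 943 reads to 49, 0 and 0. The guide with 41471 sites went from 230 reads to 2 in each input. The guide with 1 site stayed close to the pool, at 1038 reads against 991, 790 and 695. The gene value of LOC100507462 (-5.35 on the log2 scale) thus averages 3 guides that were almost gone with 1 that was not, and it depends on the 1 read added before the logarithm.

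The highest gene was STARD6, a sterol-transfer domain protein gene that is expressed mainly in testis. Its guides were:
STARD6 exon 5, chr18:54337239-54337258, minus strand: actgtagatatcgtgttgaaGGG
STARD6 exon 5, chr18:54337137-54337156, minus strand: aagtgtataatatggtacacAGG
STARD6 exon 7, chr18:54329432-54329451, minus strand: aaatctcttagctaaaagtgTGG
STARD6 exon 6, chr18:54331785-54331804, plus strand: taagtcgataaagtctcgagGGG
In the order shown, the log2 ratios of these guides were 0.55, 0.68, 1.32 and 1.74. The last of them had only 59 pool reads and 73, 226 and 230 input reads. All 4 guides of STARD6 lay above the pool on average, and the exon 7 guide was called higher on its own (adjusted p = 0.017).

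OGT, the enzyme that attaches O-GlcNAc and the gene whose intron the reporter carries, was represented by:
OGT exon 10, chrX:71557029-71557048, minus strand: ggcacgcgtataacactgcaAGG
OGT exon 7, chrX:71555291-71555310, plus strand: tggcaatagacacctacaggCGG
OGT exon 2, chrX:71536328-71536347, plus strand: ctatacacttccagtgtcgaAGG
OGT exon 12, chrX:71557528-71557547, plus strand: gaagaagttggtcagtattgTGG
The exon 10 guide went from 912 pool reads to 201, 196 and 160 and was called lower (log2 ratio -1.94 ± 0.36, standard error; adjusted p = 0.011 over all guides). The exon 7 guide had a log2 ratio of 0.07, the exon 2 guide 0.10 and the exon 12 guide 0.32. The OGT guides thus disagreed, with 1 of 4 strongly depleted in every input and the rest near the pool.

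Across all genes, cells had lost knockouts of the translation, splicing, nuclear transport and protein degradation machinery, and the gains were small. Each library was divided by its median gene-targeting guide, log2 values were averaged over a gene's guides, and limma compared the 3 inputs with the pool. Of 19109 genes, 766 were lower in input (4.01%) and 443 were higher (2.32%) at an adjusted p below 0.05. The genes that fell had a median log2 ratio of -0.85 and those that rose 0.56, with a median standard error over all genes of 0.19. A log2 ratio of -1 or below was reached by 259 of the fallen genes and -2 or below by 16, while 1 of the risen genes, STARD6, reached 1 or above. Of the 740 fallen genes with 4 guides kept, 439 had all 4 guides below 0, and 10 had at least 3 guides called individually. Of 422 risen genes with 4 guides kept, 323 had all 4 guides above 0.

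The count of lost genes depended on the scale. Non-targeting guides, which have no perfect site in the genome, sat above the median targeting guide by 0.30, 0.34 and 0.32 on the log2 scale in input libraries 1, 2 and 3. With each library scaled to those guides instead, the median gene lay at -0.34, 5844 genes were lower (30.6%) and 36 were higher (0.188%). All 766 genes called lower on the first scale were also called lower on the second, and 36 of the 443 called higher remained higher. The medians of all 48 gene lists lay below 0 on the non-targeting scale, those of olfactory receptors (-0.26) and tissue-restricted genes (-0.22) included, so directions near 0 in the lists below hold for the median-guide scale only. All values below are on the median-guide scale unless another is named. The input libraries had weight too: 457 of the 766 fallen genes and 132 of the 443 risen genes were called whichever input library was left out. Without input library 1, 2137 genes were lower and 1832 higher, without input library 2 the counts were 484 and 153, and without input library 3 they were 682 and 254. On the non-targeting scale, leaving out input library 1, 2 or 3 gave 8889, 3626 and 3734 lower genes. The p-values measure the spread among input libraries, to which the 1 pool library was assumed to be equal.

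**Figure D1:**
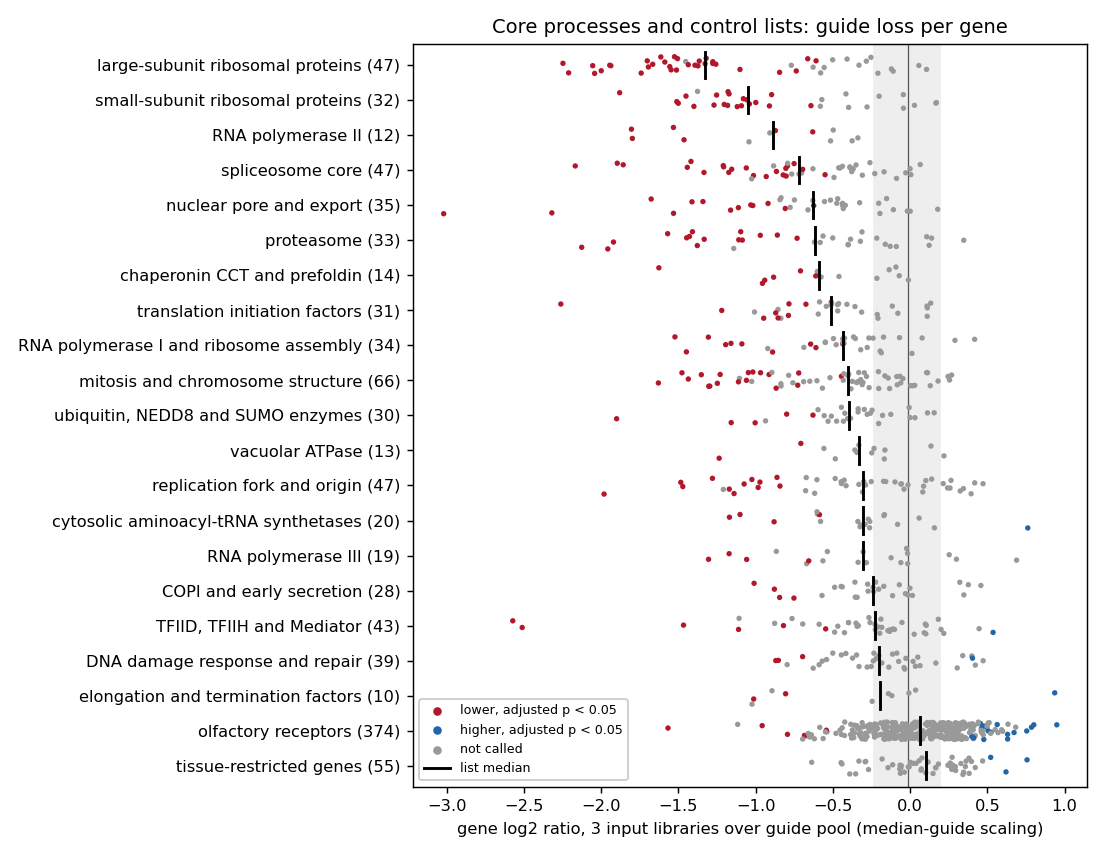
Gene log2 ratios (3 input libraries over the guide pool) for lists of core processes and for 2 control lists. Each point is a gene, black bars are list medians, the grey band spans the quartiles of all genes (-0.23 to 0.19), and numbers in brackets are genes tested. The list medians of ribosomal proteins lie at -1.33 and -1.05, and those of olfactory receptors and tissue-restricted genes at 0.06 and 0.10.

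Ribosomal proteins were the most depleted lists. Of 47 large-subunit proteins 32 fell and none rose (median log2 ratio -1.33, against -0.01 for all genes), and of 32 small-subunit proteins 20 fell and none rose (median -1.05). The large-subunit median was -1.36, -1.11 and -1.31 in input libraries 1 to 3, so the 3 libraries gave nearly equal depletion. RPL18 had 192 scaled reads per guide in the pool and 29.4, 51.1 and 44.4 in the inputs (log2 ratio -2.25 ± 0.57, adjusted p = 0.020). RPL6 had 570 in the pool and 100.1, 103 and 182 in the inputs, and it fell by 2.21 on the log2 scale (standard error 0.29). RPL12 had a log2 ratio of -2.05 and RPS27 of -1.51, and RPS3A also fell. Several of these genes have guides with more than 1 perfect genome site, up to 13 for a guide of RPL12 and 12 for one of RPS27. Such guides were 3 of 4 for RPL6, 3 of 4 for RPS3A and 4 of 4 for RPS27, and what lies at the further sites was not examined. The list was not uniform: RPL21 (0.11), RPL36A (0.06), RPS15 (0.17) and RPS28 (0.17), named after their values were seen, had ratios above 0.

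The factors that build and run the ribosome were depleted less. Of 34 genes for RNA polymerase I and ribosome assembly 10 fell (median -0.43), led by the polymerase I initiation factor RRN3 (-1.52), the rRNA processing factor UTP15 (-1.45) and the largest polymerase subunit POLR1A (-1.31). Of 31 initiation factors 9 fell (median -0.51). EIF2S3 and EIF2S2, subunits of the eIF2 complex that brings the initiator tRNA, had log2 ratios of -2.26 ± 0.39 and -1.22 ± 0.23, and EIF4A1 had -1.01 without passing the test (adjusted p = 0.061). Of 20 cytosolic aminoacyl-tRNA synthetases 4 fell (QARS, MARS, CARS and KARS; median of the list -0.31) and 1 rose (TARS, 0.76). Among 10 elongation and termination factors, the release factor ETF1 fell (-1.01) and EEF1B2 fell (-0.81), whereas EIF5A rose.

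RNA synthesis, splicing and transport followed. Of 47 spliceosome core genes 22 fell and none rose (median -0.72), with the Sm ring proteins SNRPD3 (-2.17 ± 0.47) and SNRPF (-1.90 ± 0.31) and the catalytic core protein PRPF8 (-1.86 ± 0.33) lowest. Of 12 RNA polymerase II subunits 6 fell, and all 12 had a log2 ratio below 0 (median -0.89), with POLR2I and POLR2L both at -1.80. Of 19 RNA polymerase III genes 4 fell (median -0.30), POLR3E most (-1.30). In the list of TFIID, TFIIH and Mediator 6 of 43 fell and 1 rose, with a median of only -0.23. The Mediator subunits MED30 and MED11 stood far below the rest of that list. MED30 had 310 scaled reads per guide in the pool and 53.1, 58.8 and 45.4 in the inputs (log2 ratio -2.57 ± 0.44), and MED11 had 336 against 59.0, 50.4 and 69.1 (-2.51 ± 0.41). Of 35 nuclear pore and transport genes 13 fell and none rose (median -0.63). KPNB1 fell most among them, from 308 scaled reads per guide to 43.9, 31.4 and 39.8 (log2 ratio -3.02 ± 0.53, adjusted p = 0.0016), which left 12.3% of the pool level. The exportin XPO1, with 3 guides kept, had a log2 ratio of -2.32 ± 0.40, and the inner-ring nucleoporin NUP205 one of -1.68.

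Protein turnover was depleted to a similar degree. Of 33 proteasome genes 15 fell and none rose (median -0.62), and the core particle subunit PSMB4 fell on all of its guides. PSMB4 had 795 scaled reads per guide in the pool and 192, 199 and 158 in the inputs (log2 ratio -2.13 ± 0.21, adjusted p = 3.01e-06), and 4 of its 4 guides were called individually. PSMB7 (-1.96) and the deubiquitinase of the proteasome lid, PSMD14 (-1.92), fell too. Of 14 chaperonin and prefoldin genes 6 fell (median -0.59), CCT5 most (-1.63). Of 30 enzymes of the ubiquitin, NEDD8 and SUMO systems 5 fell (median -0.39): the segregase VCP (-1.90 ± 0.27), the ubiquitin-activating enzyme UBA1 (-1.16), the scaffold CUL1, COPS6 (-0.80) and NAE1 (-0.63). In the secretory pathway 4 of 28 COPI and early secretion genes fell (NAPA, COPB1, COPA and SRP54; list median -0.24). Of 13 vacuolar ATPase genes ATP6AP1 (-1.24) and ATP6V1D (-0.71) fell, and the list median was -0.33.

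Of 47 genes of the replication fork and origin 12 fell and none rose (25.5%, median -0.31), and of 66 genes of mitosis and chromosome structure 18 fell and none rose (27.3%, median -0.40). PCNA, the sliding clamp of replication, had 260 scaled reads per guide in the pool and 72.2, 54.3 and 73.1 in the inputs (log2 ratio -1.98 ± 0.40). ORC1 of the origin recognition complex had a log2 ratio of -1.48 and the origin-firing factor TICRR -1.47. Yet ORC3, ORC4 and ORC5 had ratios of 0.47, 0.42 and 0.40 and were not called. The mitotic kinase PLK1 fell from 443 to 166, 144 and 123 scaled reads per guide (-1.63 ± 0.25). The anaphase-promoting complex subunit ANAPC1 (-1.48) and the kinetochore protein SPC24 (-1.44) fell as well. Of 39 genes of DNA damage response and repair 3 fell and 1 rose (median -0.20), RBBP8 (-0.87 ± 0.24) and BLM (-0.85 ± 0.22) among the fallen. WRN, the helicase named above, had 254 scaled reads per guide in the pool and 137, 168 and 135 in the inputs. Its log2 ratio was -0.80 ± 0.26 and negative in 3 of 3 inputs, but it missed the threshold (adjusted p = 0.071, limma); on the non-targeting scale it was called lower.

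**Figure D2:**
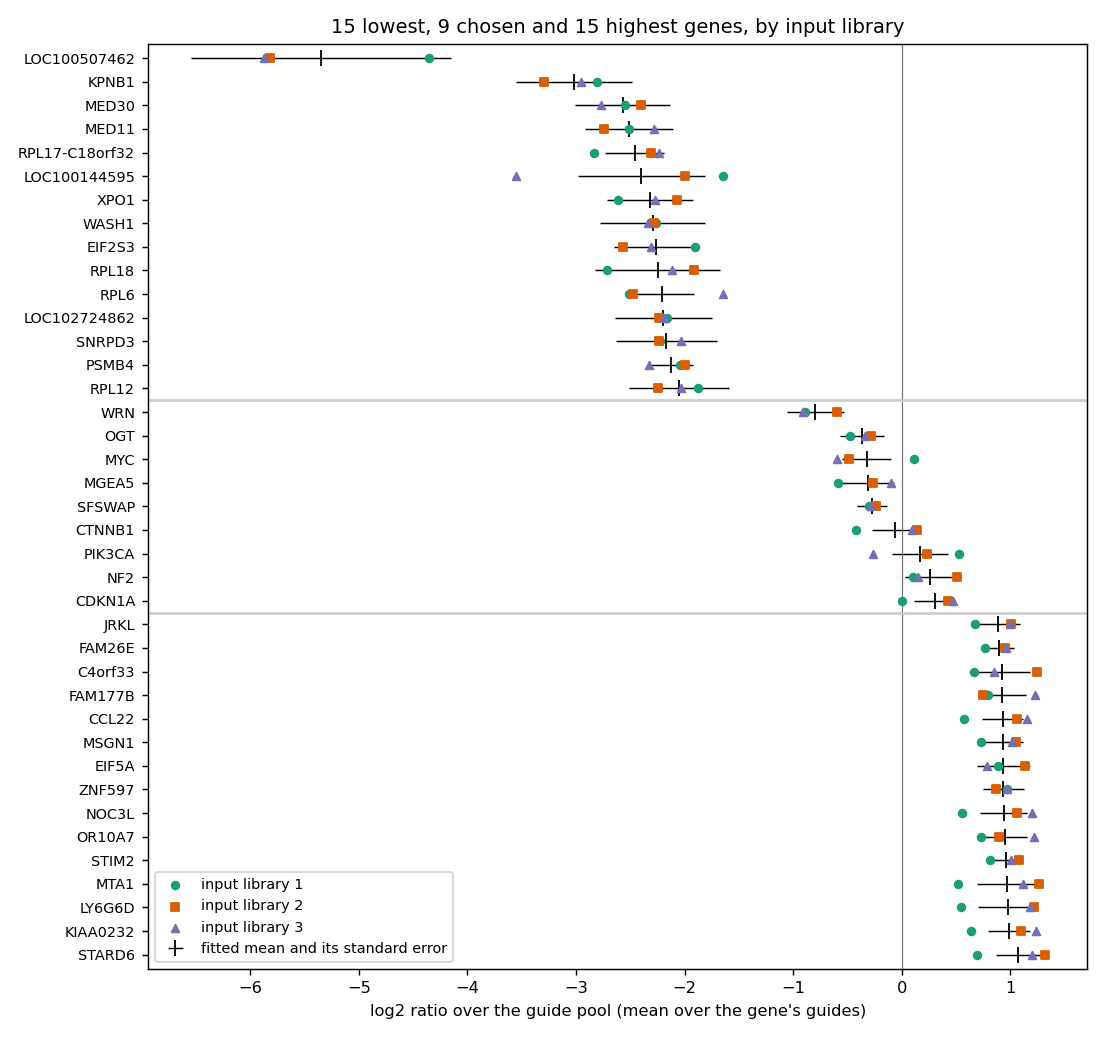
Log2 ratio over the guide pool in each input library for the 15 lowest genes, 9 genes chosen for the cell line or the screen, and the 15 highest genes; vertical ticks are fitted means and bars their standard errors. In the lowest genes no library lies above -1.64, the libraries disagree for MYC, CTNNB1 and PIK3CA, and input library 1 is the lowest of the 3 in 12 of the 15 highest genes.

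Energy metabolism was depleted much less than the machinery above. In the energy lists together 4.35% of 207 genes fell and 1.45% rose, beside 4.01% and 2.32% of all genes, but single lists differed. None of 24 genes of pyruvate dehydrogenase and the citric acid cycle fell (median -0.04), none of 38 complex I genes fell and NDUFS7 rose (median -0.10), and 2 of 40 genes of complexes III to V fell (median -0.10). Of those, UQCRH rested on 1 of 4 guides, and with the median over guides its ratio was 0.14 in place of -1.17. Of 80 genes of the mitochondrial ribosome and its tRNA synthetases 4 fell, among them YARS2 (-0.97) and MRPL44 (-0.85), and 2 rose (median -0.10). Of 18 glycolysis genes 2 fell (11.1%), glucose-6-phosphate isomerase GPI (-0.94 ± 0.26) and aldolase ALDOA (-0.79 ± 0.16), with a list median of -0.20. Of 7 pentose phosphate genes TKT fell (-0.56, 14.3% of the list). TKT was not called when guides were compared within classes of like pool reads (described below).

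In the metabolite lists together, 6 of 96 genes fell (6.25%, beside 4.01% of all genes) and 1 rose (1.04%, beside 2.32%). The 24 genes of mevalonate and sterol synthesis had a median of -0.08, and HMGCS1, MVK and NUS1 were among those that fell. HMGCS1 had 461 scaled reads per guide against 239, 153 and 222 (log2 ratio -1.20 ± 0.23). It condenses acetyl units, the kinase MVK (-0.76) phosphorylates mevalonate, and NUS1 (-1.04) serves dolichol synthesis. Of 29 genes of iron-sulfur cluster, heme and iron uptake, the mitochondrial chaperone HSPA9 alone fell (-1.19 ± 0.25; list median -0.20). Of 27 nucleotide synthesis genes DUT fell (-0.57), and the ribonucleotide reductase subunits RRM2 (-0.99) and RRM1 (-0.81) did not pass the test. Of 8 selenoprotein genes none fell and GPX4, the lipid peroxide reductase, rose (0.73). GPX4 was not called when guides were compared within classes of like pool reads (described below). None of 8 hexosamine pathway and O-GlcNAc cycling genes was called in either direction (median -0.10).

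Among genes tied to the screen, GFPT1 had the lowest ratio and just missed the threshold, while OGT, MGEA5 and SFSWAP moved less. GFPT1, the first enzyme of hexosamine synthesis, had 225 scaled reads per guide in the pool and 107, 115 and 122 in the inputs. Its log2 ratio of -0.98 ± 0.30 lay at the threshold (adjusted p = 0.0502, limma). OGT had 320 in the pool and 230, 263 and 254 in the inputs (log2 ratio -0.37 ± 0.20, adjusted p = 0.29), which its exon 10 guide alone carried, as shown with the sequences. MGEA5, the gene of OGA, had a log2 ratio of -0.31 ± 0.24 and SFSWAP, a splicing regulator, -0.27 ± 0.13. Each of OGT, MGEA5 and SFSWAP was below the pool in 3 of 3 inputs, and none of them passed the test on the median-guide scale. On the non-targeting scale all 3 were called lower, and so was GFPT1. On that scale 30.6% of all genes were.

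Growth signalling lists together held few called genes: 4.08% were lower and 3.40% higher, beside 4.01% and 2.32% of all genes. The 23 RAS and MAPK drivers had a median of -0.09, and the scaffold SHOC2 had a log2 ratio of -0.51 that was not called. Of 14 Wnt drivers 3 fell (21.4%) and WLS, the Wnt secretion factor, rose (0.52, 7.14% of the list). The list median was -0.06. The fallen genes were the transcription factor TCF7L2 (784 scaled reads per guide against 480, 388 and 437; -0.85 ± 0.15), the signal transducer DVL2 (-0.85 ± 0.21) and the co-receptor LRP6 (-0.84 ± 0.20). CTNNB1, which encodes β-catenin, had 301 in the pool and 225, 331 and 320 in the inputs (log2 ratio -0.06 ± 0.21), with the inputs on both sides of the pool. Of 26 PI3K and mTOR drivers RHEB (-0.61) and LAMTOR2 (-0.50) fell (7.69%), while RICTOR (0.73), RRAGA (0.59) and AKT2 (0.43) rose (11.5%). PIK3CA had a log2 ratio of 0.17 ± 0.26 and MYC one of -0.32 ± 0.22, and neither was called.

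Lists of growth restraint rose hardly at all. Among 20 PI3K and mTOR restraint genes the AKT phosphatase PHLPP1 rose (609 scaled reads per guide against 835, 815 and 816; log2 ratio 0.43 ± 0.11, adjusted p = 0.020; list median 0.08). None of 22 Hippo restraint genes was called (median 0.05), and STK4 came nearest with 0.46 (adjusted p = 0.051). NF2, their membrane-linked scaffold, had 0.26 ± 0.23. None of 13 RAS restraint genes, 10 Wnt restraint genes or 12 TGF-β pathway genes was called, and their medians were -0.0046, -0.14 and -0.07.

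In the control of growth arrest, MDM2 and its partners held calls and the list of growth arrest genes did not. Of the 5 genes of MDM2 and its partners 2 fell (40% of the list; median -0.48). They were the ubiquitin ligase MDM2 (440 scaled reads per guide against 307, 292 and 232; log2 ratio -0.68 ± 0.20, adjusted p = 0.037) and the deubiquitinase USP7 (495 against 290, 318 and 322; -0.67 ± 0.17, adjusted p = 0.021). The list of 19 growth arrest genes also holds genes of cell death, BBC3 and BAX among them. None of the 19 was called by limma, and their median was 0.09. CDKN1A, which encodes the CDK inhibitor p21, had 311 against 312, 419 and 432 (0.30 ± 0.19). BBC3 (0.47), USP28 (0.40) and BAX (0.39) were the highest of the list, each above the pool in 3 of 3 inputs. On the non-targeting scale CDKN1A, BBC3, USP28 and BAX were not called either.

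Cell cycle, cell death and chromatin lists held few depleted genes. Where any fell, the share of the list was 4.55% to 7.14%, near the 4.01% of all genes. Within classes of like pool reads the share was 18.2% for cyclins, CDKs and E2F partners and 10.2% for chromatin regulators. That of all genes was then 4.06%. Of 22 cyclins, CDKs and E2F partners CDK1 fell (382 scaled reads per guide against 146, 148 and 114; -1.50 ± 0.26), and CCNA2 (-1.48) and TFDP1 (-1.08) did not pass. Of 14 genes of cyclin and CDK restraint FZR1, an activator of the anaphase-promoting complex, fell (-0.79) and none rose. Of 14 apoptosis effectors the death receptor TNFRSF10B rose (586 against 822, 838 and 803; 0.49 ± 0.11, adjusted p = 0.010) and VDAC2, a mitochondrial channel, fell (-0.60). None of 8 apoptosis inhibitors was called, with a median of -0.29 and BCL2L1 lowest at -0.51. Of 49 chromatin regulators 3 fell (SMARCC2, SIN3A and DNMT3B; median -0.13).

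**Figure D3:**
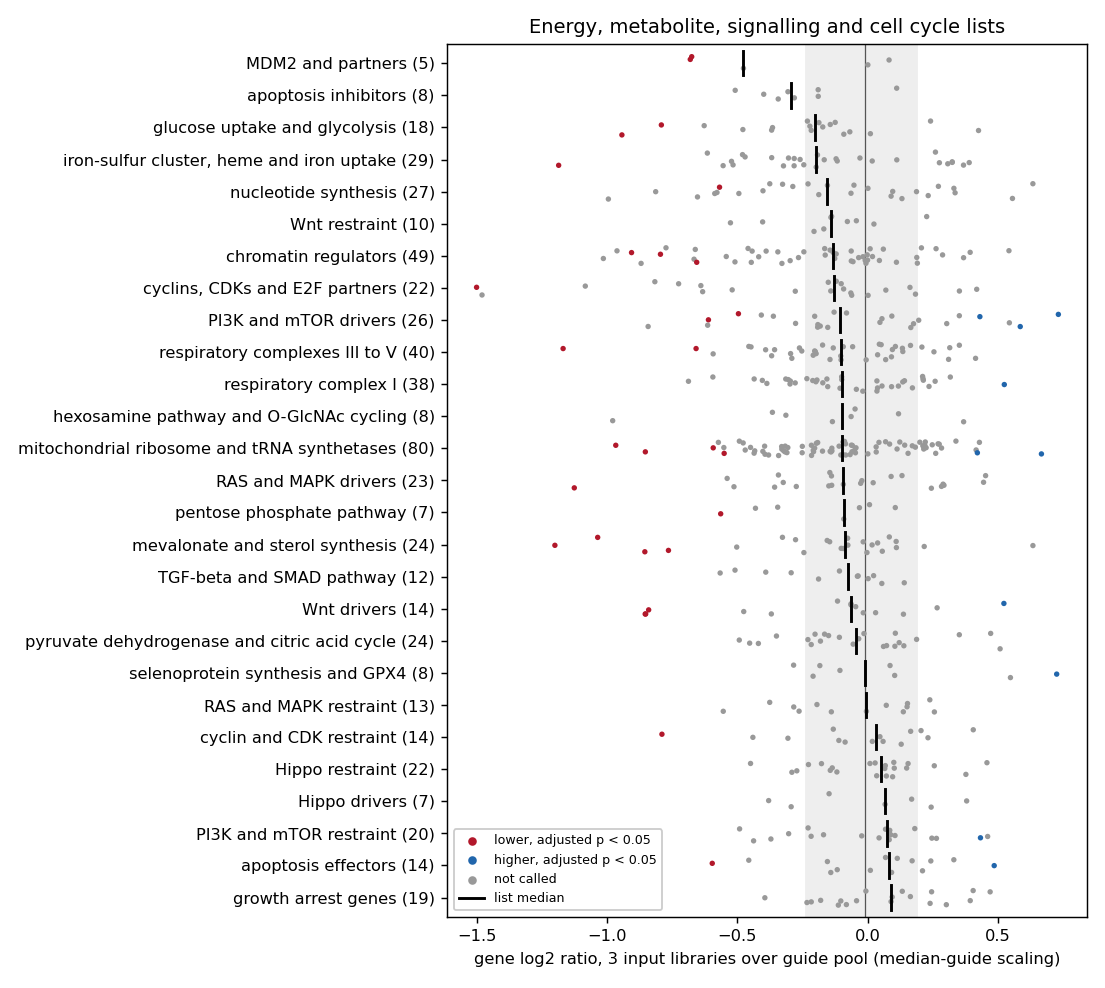
Gene log2 ratios as in the plot of core lists, for lists of energy, metabolites, signalling, cell cycle, cell death and chromatin. Most list medians lie within the grey band of the quartiles of all genes; MDM2 and its partners (-0.48) and apoptosis inhibitors (-0.29) lie below it.

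Outside the lists, the lowest genes included several families with many copies. WASH1, a member of the WASH actin regulator family, had 234 scaled reads per guide in the pool and 48.7, 48.3 and 46.5 in the inputs (log2 ratio -2.29 ± 0.49), and its guides had up to 6 genome sites. LOC100144595 (-2.40) and LOC102724862 (-2.20) had guides with up to 1218 and 11 sites. With only guides of 1 site kept, LOC100144595 had a ratio of 0.40. RPL17-C18orf32, a read-through of RPL17, fell by 2.46 with guides of up to 7 sites.

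Few of the higher genes were in a list of processes. The lists hold many needed processes and were chosen with earlier results of these data known, so these counts describe the lists and are no test. Of the 766 fallen genes 222 were listed, which is 18.9% of the 1177 listed genes, beside 4.01% of all genes. Genes in no list rose in 2.33% of cases, beside 2.32% of all genes. Of the 443 risen genes, 14 were among the 1177 listed. Of those 14, 0 were called higher by limma on the non-targeting scale, where 4 were higher at an unadjusted p under 0.05, and 36 of all 443 were still called. Among control genes that a colon line is not known to need, 18 of 374 olfactory receptors rose (4.81%, beside 2.32% of all genes) and 5 fell (1.34%, beside 4.01%). Of 55 tissue-restricted genes 3 rose, TAS2R43, TAS2R50 and FGA, and none fell. STARD6 had 191 scaled reads per guide in the pool and 309, 476 and 439 in the inputs (log2 ratio 1.07 ± 0.21, adjusted p = 0.0028), more than the pool in each library. KIAA0232 had 230 against 359, 492 and 541 (0.99 ± 0.19), and STIM2, a calcium sensor of the endoplasmic reticulum, had 303 against 531, 638 and 607 (0.96 ± 0.15). The others of the highest 15 ranged from 0.89 to 0.98. They included the chromatin protein MTA1, the receptor OR10A7, the mesoderm factor MSGN1, the chemokine CCL22, the zinc finger protein ZNF597, the uncharacterised C4orf33 and the genes JRKL, FAM26E, FAM177B and LY6G6D. Of the highest 15, MTA1, LY6G6D, EIF5A and C4orf33 were not called on the non-targeting scale. The same genes and FAM177B were not called within classes of like pool reads. Median pool reads per guide in the highest 15 ran from 130.5 (MTA1) to 500.5 (FAM26E). Only FAM26E lay above the 398.5 of all genes. The highest 15 also included NOC3L, a ribosome assembly factor (175 against 258, 366 and 402), and EIF5A (118 against 217, 258 and 203), which other cells need for translation.

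**Figure D4:**
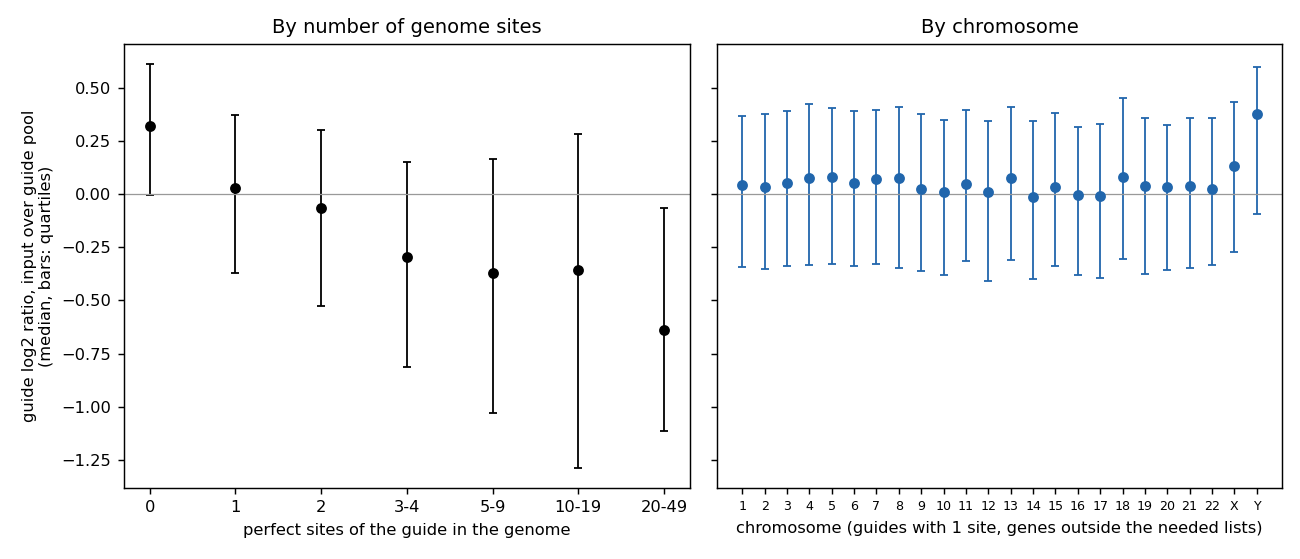
Median guide log2 ratio, with quartiles as bars, by the number of perfect genome sites of the guide (left; classes of at least 50 guides, needed genes included) and by chromosome (right; guides with 1 site, genes outside the lists of needed processes). Medians fall from 0.32 for guides with no site to -0.64 for guides with 20 to 49 sites, and chromosomes X (0.13) and Y (0.38) lie above all other chromosomes.

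Guide ratios were mostly lower where a guide had more perfect sites in the genome. The classes hold guides of all genes, needed genes such as RPL12 and RPS27 included. The 994 non-targeting guides had a median log2 ratio of 0.32. The 72888 targeting guides with 1 perfect site had 0.03, the 1728 with 2 sites -0.06, the 695 with 3 to 4 sites -0.29, the 422 with 5 to 9 sites -0.37, the 150 with 10 to 19 sites -0.36 and the 53 with 20 to 49 sites -0.64. The 8 guides with 50 sites or more had a median of -5.62. The order held in each input library from no site to 3 to 4 sites. Of all guides 1.74% were called lower and 1.48% higher, while 10.7% of those with 5 to 9 sites and 13.3% of those with 10 to 19 sites were called lower. The share did not keep rising, since 1 of the 53 guides with 20 to 49 sites was called lower (1.89%). The guide calls depended on the input libraries, since 7699 guides were lower and 8763 higher without input library 1 and 814 and 305 without input library 2, in place of 1336 and 1137. Non-targeting guides were called higher in 12.3% of cases and lower in 1.31%. Within the olfactory receptors the medians did not fall at each step. They were 0.14 for guides with 1 site, -0.04 with 2 sites, 0.02 for the 27 guides with 3 to 4 sites and -0.31 for the 11 guides with 5 to 9 sites. At the level of genes, 12 of the 41 in which the guide with the fewest sites had 5 to 9 fell (29.3%, beside 4.01% of all genes) and none rose. The fallen genes included TBC1D3L (-1.85), NPIPB6 (-1.67) and the chorionic gonadotropin gene CGB (-1.10). Where the fewest sites were 2 to 4, 44 of 307 genes fell (14.3%), and where they were 10 or more, 6 of 24 fell (25%, median log2 ratio -0.15). Such genes share guides' targets with their copies, so they are not independent of each other. Even so the families differed among themselves: DUX4, with 19 to 22 sites, had -1.41, whereas TSPY4, with 9 to 11 sites, had 0.30 and was not called.

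Differences between chromosomes were smaller. For guides with 1 site, to genes outside the lists of needed processes, the medians of the autosomes ran from -0.01 on chromosome 14 to 0.08 on chromosome 18. The 2658 guides on chromosome X had a median of 0.13 (0.13, 0.13 and 0.12 in input libraries 1 to 3), above each autosome. The 62 guides on chromosome Y had 0.38, close to the non-targeting guides. These guides share libraries and, in sets of up to 4, their gene, and the values are a description without a test.

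The abundance of a guide in the pool moved with its ratio, which contains the same pool reads. Targeting guides of 1 site had a median log2 ratio of 0.33 where the pool held 100 to 199 reads, of 0.0041 at 300 to 399 reads and of -0.28 at 1200 reads or more. Non-targeting guides were more abundant in the pool, with a median of 785 reads against 394, and lay above the targeting guides in each class with at least 10 of them. The medians were 0.61 against -0.01 at 400 to 599 reads, 0.26 against -0.08 at 800 to 999 reads and 0.04 against -0.28 at 1200 reads or more. Olfactory receptor guides lay between both sets in these 3 classes, at 0.09, 0.05 and -0.15. Genes called lower had a median of 554.8 pool reads per guide and genes called higher 494.5, beside 398.5 for all genes. When each library was centred within 20 classes of pool reads, an alternative chosen after seeing this, 660 of the 766 fallen genes and 292 of the 443 risen genes were called again. The large-subunit ribosomal median was then -1.39 and that of all genes -0.05. No gene was then called higher in the lists that hold TARS, EIF5A, NDUFS7 and GPX4. The same held for the lists of the mitochondrial ribosome, of TFIID, TFIIH and Mediator, and of DNA damage response. PHLPP1, TNFRSF10B, 1 Wnt driver and 2 PI3K and mTOR drivers were called higher there.

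**Figure D5:**
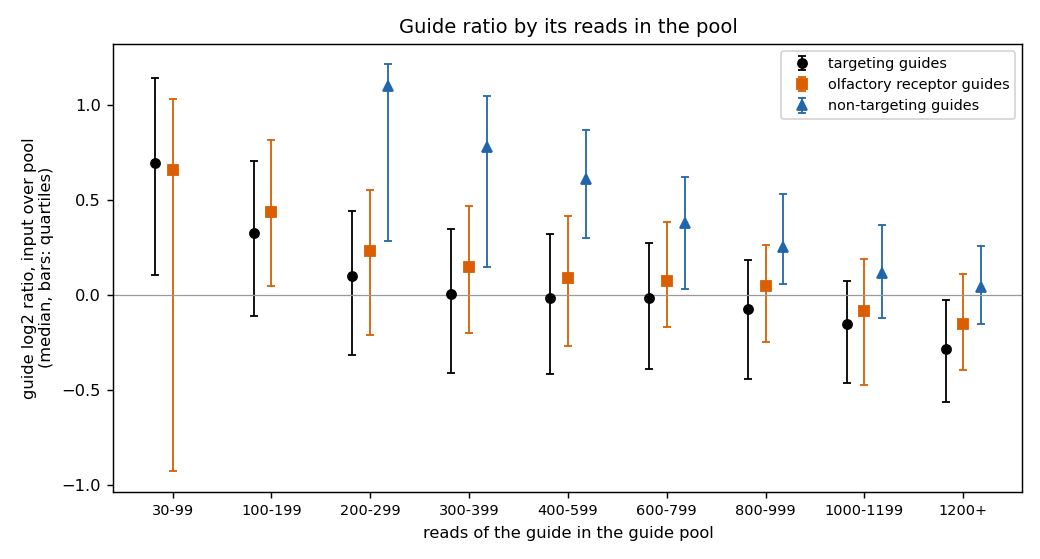
Median guide log2 ratio with quartiles as bars, by reads of the guide in the pool, for targeting and olfactory receptor guides with 1 genome site and for non-targeting guides (classes of at least 10 guides). All 3 sets fall with pool reads, and non-targeting guides lie highest in every class where they are plotted.

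Guides that cut late in the coding sequence had ratios nearer 0 in needed genes. For guides with 1 site in genes of translation, RNA, protein turnover and genome maintenance, the median log2 ratio was -0.47 from 0 to 20% of the coding sequence, -0.46 from 20 to 40%, -0.46 from 40 to 60% and -0.20 from 60 to 80%. Guides of all genes had medians of 0.02, 0.03, 0.03 and 0.04 in the same intervals. Only 1 guide of the needed genes cut beyond 80%.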

How the data were processed

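Guides were read by single-end sequencing of the amplified guide locus. Per the labels the authors used FastQC 0.11.9, cutadapt 3.3 and MAGeCK. The deposited pool table holds whole-number counts per guide. The deposited guide summary holds the 3 input values as other numbers, MAGeCK's normalised counts joined by slashes, and dividing each by its smallest step gave whole reads for 100% of guides in every library (tolerance 0.1 read). The gene summary and the sorted values, the authors' own comparisons, were not used. A genome build for guide counting is not given in the sources used here.

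Here each library was divided by the median of its gene-targeting guides, or of its non-targeting guides, and multiplied by the mean of those medians. Guides with under 30 pool reads were left out, log2(scaled reads + 1) was averaged over a gene's guides, and genes with at least 2 guides were tested. Fold changes are therefore on the log2(scaled reads + 1) scale, which understates low values, and "scaled reads per guide" is 2 to the power of that average. limma 3.58.1 (R 4.3.3; lmFit, eBayes with trend) compared 3 inputs with 1 pool library, with Benjamini-Hochberg adjustment over all genes or all guides. The same fit per guide used the same filter. The fit was also run on simulated data. There the pool was drawn with the same spread as the inputs, so the assumption of equal spread was not checked. edgeR 4.0.16 and DESeq2 1.42.0 on recovered reads were alternatives. Intervals from read counts were not formed, since PCR reads are not independent molecules; errors are standard errors of the fit over libraries. The paper's reporting checklist defines biological replicates by passage of the cells at different times, without a common split for transfection or treatment. Whether the inputs shared other handling steps is not stated in the sources used here.

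Guides were matched by sequence to the primary chromosomes of GRCh38 and to the canonical coding sequences of GENCODE 44. Of 76441 targeting guides 96.0% had 1 perfect site.

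The 48 gene lists and the members were chosen with earlier results of these data known. Text names the 15 lowest and 15 highest genes among those called with the same sign in 3 of 3 inputs and at least 3 guides kept, the 3 lowest members of each list (the 3 highest for lists of restraint, growth arrest and apoptosis effectors) and CTNNB1, PIK3CA, WRN, MYC, CDKN1A, NF2, OGT, MGEA5 and SFSWAP. Some genes that this rule also picks are not reported here. Other genes, named where a list held few calls or a member stood apart, were chosen after their values were seen. Alternatives covered the pseudocount, the filter, the scaling, the summary over guides, the test, guides of 1 site and each input library left out.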

Additional observations from a re-analysis of the deposited data

How the results depend on the processing

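The count of genes called on the median-guide scale (1209) stayed within 1.5 times under both other pseudocounts, both other filters on pool reads, total-read, TMM and olfactory scaling, the median over guides, guides of 1 site, edgeR (1035 lower, 564 higher), DESeq2 (1038 and 678) and centring in classes of pool reads (775 and 321). Lower genes made up 63.4% of these calls, 91.7% with olfactory scaling and 99.4% of the 5880 called with non-targeting scaling. Testing each ratio against 0, which leaves out the spread of the pool, called 9013 genes, and asking for a log2 change of at least 1 left 260. Leaving out 1 input library gave 637 to 3969 genes on the median-guide scale, 3638 to 9150 on the non-targeting scale (5880 with all), 1119 to 16462 guides on the median-guide scale (2473 with all) and 3677 to 20894 guides on the non-targeting scale (6080 with all). The highest count in each range was that without input library 1 and the lowest that without input library 2. The median over guides gave 3758 genes on the non-targeting scale. Of the named genes 2 reversed: UQCRH (0.14 with the median over guides) and LOC100144595 (0.40 with guides of 1 site); the median leaves out most of the weight of 1 guide, and the second setting drops guides with many sites. In all, 2355 of the named genes' values kept direction and side of the threshold, 186 newly passed it, 114 no longer passed it, and 30 that passed in neither setting changed sign. Depth limits guides with under 300 pool reads: none of those with 1 site was called lower. No paired analysis was possible because the guide pool is 1 library without a replicate number.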
